A study of Mus musculus with 2 samples.

Results

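The 9 genes described here, S100a4, S100a6, S100a10, S100a11, S100a13, Lgals1, Lgals3, Crip1 and Crip2, encode small proteins of 3 families, the S100 proteins, the galectins and the cysteine-rich LIM proteins. They were taken by symbol from a table of 10982 protein-coding genes, and all 9 had a value in both libraries. The members were selected on the FPKM values of these same 2 libraries, as small abundant proteins with short mRNAs, so the values below are a description and carry no test. RNA sequencing was done on 1 library from mouse neonatal cardiomyocytes transfected with an antagomir (a modified antisense oligonucleotide that blocks a small RNA) directed at the piRNA FERPIR, and on 1 library from such cells given a negative control. PBS is given as the treatment of both libraries, and neither a strain nor any pooling of animals is given. Values are FPKM, fragments normalised for transcript length and for the mapped fragments of the library, so levels of different genes can be compared. With 1 library per group no difference has a replicate check, and the depth of both libraries is unknown.

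S100 proteins are small cytosolic proteins that carry a pair of EF-hands, the helix-loop-helix fold that binds calcium, and that dimerise and bind target proteins when calcium rises. Some are also released from cells and act on surface receptors. Galectins bind beta-galactosides on glycoproteins, outside cells as cross-linkers of receptors and matrix, and inside cells on damaged vesicles. CRIP proteins consist largely of LIM domains, zinc-binding modules through which proteins of the cytoskeleton and nucleus bind partners. In the heart most of these genes are better known from fibroblasts, vascular cells and macrophages than from cardiomyocytes.

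The 9 genes together held 11961 FPKM in the antagomir library, against 6384 FPKM in the control library, which was 3.82% of all FPKM in the antagomir library and 2.16% in the control library. Lgals1 was the most abundant gene of the antagomir library and the third (rank 3) of the control library, and S100a4 was at rank 2 in the antagomir library and rank 12 in the control library. These 2 genes accounted for 4750 of the 5577 FPKM by which the sum of the 9 was larger in the antagomir library. Crip1 stood at rank 228 in the antagomir library and at rank 1178 in the control library, and Lgals3 at rank 161 in the antagomir library and at rank 55 in the control library.

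Differences are given as log2 of (antagomir FPKM + 1) over (control FPKM + 1), and folds are on the same scale. Of the 9 members 4 were at least 2-fold higher in the antagomir library, namely Crip1, S100a13, S100a4 and S100a6, where 2.88% of the 10201 genes that reached 1 FPKM in either library were. None was at least 2-fold lower, where 3.79% of these genes were, although Lgals3 was when values were rescaled to TPM or the trend over length and GC content was removed. With that trend removed 1.71% of all genes were at least 2-fold higher and 3.64% lower. At a limit of 1.5-fold 6 members were higher, Lgals1 and S100a10 being added, with 10.8% of all genes, and 1 member, Lgals3, was lower, with 13.4% of all genes. The members' median log2 ratio was 0.96, against -0.05 for all genes. Since the same contrast entered the choice of the members, nothing is read from these counts.

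**Figure D1:**
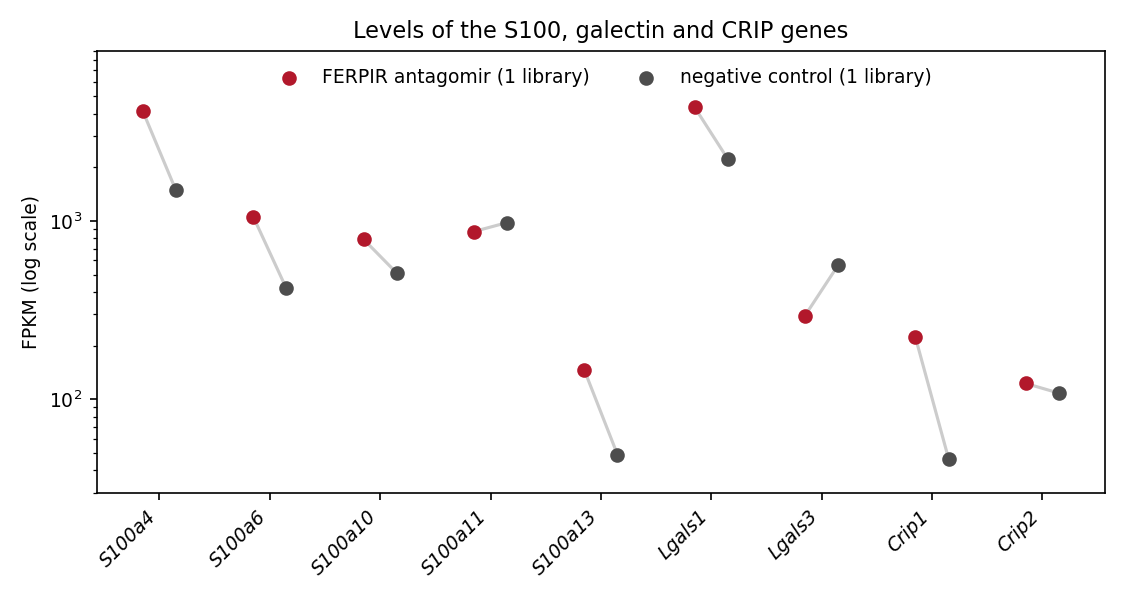
FPKM of each of the 9 genes on a log axis, in the antagomir library (red, left of each pair) and in the control library (grey, right), 1 library per group, with a line joining the values of a gene. Crip1 has the steepest line, with 222 FPKM in the antagomir and 46.5 FPKM in the control library, and the lines of Lgals3 and S100a11 run the other way.

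S100a4, a protein that binds non-muscle myosin and is widely used as a fibroblast marker, had 4125 FPKM in the antagomir library and 1484 FPKM in the control library. This was a 2.78-fold higher level, with a log2 ratio of 1.47. S100a6, or calcyclin, which binds the protein CacyBP, had 1058 FPKM in the antagomir library and 418 FPKM in the control library, 2.52-fold higher. S100a13, which takes part in the export of the growth factor FGF1, was the lowest of the 5 S100 members in both libraries, with 146 FPKM in the antagomir library and 49.0 FPKM in the control library, 2.94-fold higher. These 3 genes stood at ranks 59, 111 and 49 from the top of the 10201 log2 ratios.

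The other S100 members differed less. S100a10, which lost the ability to bind calcium and forms a complex with annexin A2, had 789 FPKM in the antagomir library and 510.4 FPKM in the control library, 1.54-fold higher. S100a11, a partner of annexin A1, had 872 FPKM in the antagomir library and 979 FPKM in the control library, a log2 ratio of -0.17. In the control library S100a11 was the second most abundant of the 5, behind S100a4, whose level was 1.52 times that of S100a11. In the antagomir library S100a11 was below S100a6, and the level of S100a4 was 4.73 times that of S100a11. Ratios of 2 genes within a library do not change with the scaling of that library. S100a4 and S100a6 kept close to the same proportion, with 3.90 FPKM of S100a4 per FPKM of S100a6 in the antagomir library and 3.55 in the control library.

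The members lie in 2 places on chromosome 3. In genome build GRCm38, S100a13 spans 90514435 to 90524581, S100a4 spans 90603771 to 90606045 and S100a6 spans 90612882 to 90624181, all on the plus strand within a cluster of S100 genes. S100a11 (93520488 to 93526287) and S100a10 (93555080 to 93564643) lie outside it, with 34.6 kb between their starts. From S100a1 to S100a6 the cluster covered 113 kb and held 7 S100 genes with a value. All 7 had a log2 ratio above 0, from 0.59 to 1.56, and kept that sign under each alternative in which they had a value. With the length and GC trend removed S100a1 was at 0.07 and S100a3 at 0.12, and S100a3 was under 1 FPKM in both libraries. The median was -0.05 for all genes and 0.28 for the shortest of 5 groups by transcript length, in which these genes fall. Fewer than 4700 of the 10201 genes that reached 1 FPKM in either library had a log2 ratio above 0. As its median was above 0, most of the shortest group had one too. Within the cluster S100a16, a broadly expressed member, had 76.1 FPKM in the antagomir library and 43.2 FPKM in the control library, 1.74-fold higher. S100a1, known for its part in calcium cycling of the heart muscle cell, had 106 FPKM in the antagomir library and 70.3 FPKM in the control library, a log2 ratio of 0.59. S100a14 and S100a3 were low, S100a14 with 3.27 FPKM in the antagomir library and 0.88 FPKM in the control library, and S100a3 with 0.69 FPKM in the antagomir library and 0.09 FPKM in the control library. The 3 genes that precede the cluster in the table had log2 ratios of 0.39 (Ilf2), -0.05 (Snapin) and -0.23 (Chtop). Of 12 other S100 genes looked for, S100a1, S100a3, S100a14 and S100a16 had a value. The other 8, among them S100a8 and S100a9, the pair abundant in neutrophils and monocytes, had none, which is not read as low expression. Every row of the table reached 0.50 FPKM in at least 1 library.

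**Figure D2:**
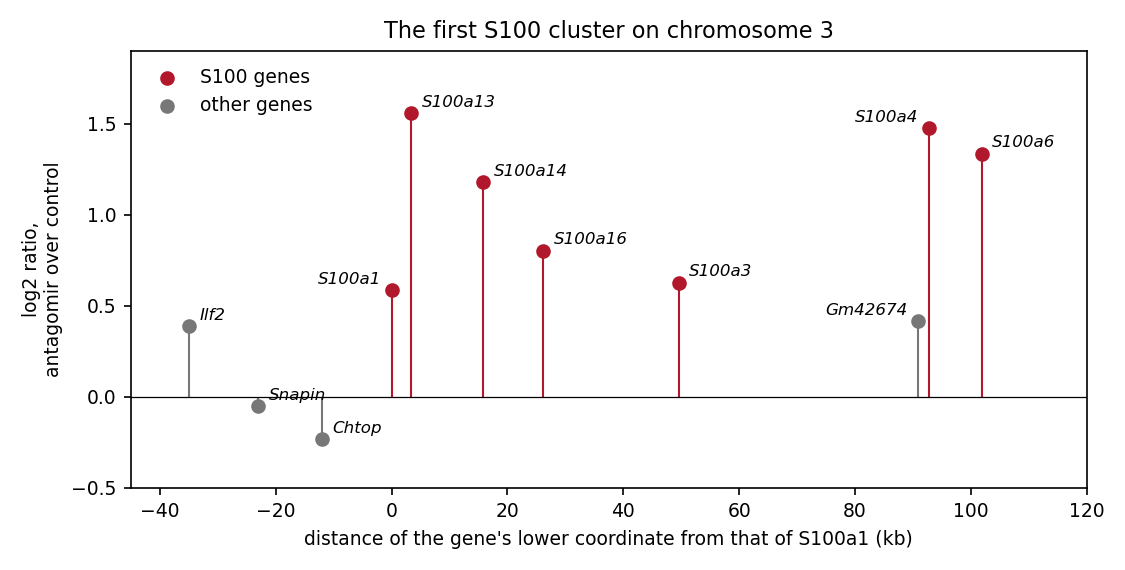
Log2 ratio of antagomir over control for the genes with a value from S100a1 to S100a6 and the 3 genes before them, against the distance of each gene's lower coordinate from that of S100a1 in kb, 1 library per group. The 7 S100 genes (red) lie between 0.59 and 1.56, and the other genes (grey) between -0.23 and 0.42.

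S100a13 and S100a1 are transcribed away from each other, and their annotated 5′ ends lie 43 bases apart. Whether the 2 genes share a promoter was not tested. The order of their levels differed between the libraries, with 1.38 FPKM of S100a13 per FPKM of S100a1 in the antagomir library and 0.70 in the control library. The promoter windows of 3 S100 members are shown because S100a4 and S100a13 were higher in the antagomir library and S100a11 was not. The windows run from 250 bases before to 50 bases after the RefSeq start on the plus strand of GRCm38.p6, at chr3:90603520-90603819 for S100a4, chr3:93520246-93520545 for S100a11 and chr3:90514185-90514484 for S100a13. Capitals mark matches on either strand to 6 motifs. The TATA box, which places the start of transcription, was searched as TATAAA. The GC box, bound by SP1 and its relatives, was searched as GGGCGG. The site of AP-1, the dimer of FOS and JUN proteins, was searched as TGANTCA. The box bound by NF-Y was searched as CCAAT. The site of the TEAD proteins, partners of YAP, was searched as GGAATG. The composite site of ATF4 and C/EBP proteins was searched as TGATGNAA.
S100a4: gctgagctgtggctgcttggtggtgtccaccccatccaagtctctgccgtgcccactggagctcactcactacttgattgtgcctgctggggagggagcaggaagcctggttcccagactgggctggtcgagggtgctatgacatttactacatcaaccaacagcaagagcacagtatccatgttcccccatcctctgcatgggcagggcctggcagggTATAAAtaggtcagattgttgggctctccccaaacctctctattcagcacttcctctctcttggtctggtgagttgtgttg
S100a11: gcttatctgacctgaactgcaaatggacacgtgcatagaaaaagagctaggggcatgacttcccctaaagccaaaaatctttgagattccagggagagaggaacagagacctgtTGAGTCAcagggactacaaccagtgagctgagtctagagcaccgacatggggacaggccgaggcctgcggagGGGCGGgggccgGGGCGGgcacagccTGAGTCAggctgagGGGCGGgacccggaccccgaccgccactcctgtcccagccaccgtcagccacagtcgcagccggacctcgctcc
S100a13: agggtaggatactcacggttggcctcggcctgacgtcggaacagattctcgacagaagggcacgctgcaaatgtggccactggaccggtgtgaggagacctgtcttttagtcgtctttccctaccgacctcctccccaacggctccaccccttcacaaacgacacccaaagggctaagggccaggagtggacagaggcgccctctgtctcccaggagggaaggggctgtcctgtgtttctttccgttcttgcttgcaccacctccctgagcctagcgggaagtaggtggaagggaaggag
The S100a4 window held a TATA box that begins 31 bases before the start, a motif found in 13.6% of all 32851 windows of this length. The S100a11 window held 3 GC boxes and 2 AP-1 matches. At least 1 GC box was found in 35.7% of all windows, and at least 1 AP-1 match in 7.81%. The S100a13 window held none of the 6 motifs. The window of S100a6, also at least 2-fold higher, is not shown and held only 1 CCAAT match, found in 37.4% of all windows. The windows were picked by the log2 ratios, so no link between motif and level is read from them. None of these matches overlapped another. A match is a run of letters and not a site shown by an assay, and no factor was measured here.

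Galectin-1, encoded by Lgals1, is a dimer of carbohydrate-binding domains, and its gene had 4332 FPKM in the antagomir library and 2223 FPKM in the control library. This was 1.95-fold higher, a log2 ratio of 0.96. Galectin-3, encoded by Lgals3, can form larger oligomers through an extended end and is known from macrophages and from fibrosis of the heart. Lgals3 had 295 FPKM in the antagomir library and 565 FPKM in the control library, 1.91-fold lower, a log2 ratio of -0.94, and was at rank 469 from the lowest of the 10201 log2 ratios. The 2 galectins differed in opposite directions, and there were 14.7 FPKM of Lgals1 per FPKM of Lgals3 in the antagomir library and 3.93 in the control library. In GRCm38 Lgals1 lies on chromosome 15 from 78926725 to 78930465 and Lgals3 on chromosome 14 from 47367751 to 47386160. The next genes in the table on either side had other values. Sh3bp1 and Nol12, beside Lgals1, had log2 ratios of 0.10 and -0.85, and Mapk1ip1l and Dlgap5, beside Lgals3, had -0.04 and 0.52.

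Of 8 other galectin genes 4 had a value, with a median log2 ratio of -0.07. None was 1.5-fold higher or lower, where 10.8% of all genes were higher and 13.4% lower. Lgals9 had 23.0 FPKM in the antagomir library and 21.02 FPKM in the control library, and Lgals8, which recruits autophagy receptors to damaged vesicles, had 12.5 FPKM in the antagomir library and 16.2 FPKM in the control library. Lgals2 had 1.66 FPKM in the antagomir library and 1.09 FPKM in the control library, and Lgalsl had 1.15 FPKM in the antagomir library and 1.59 FPKM in the control library. Lgals1 alone made up most of the galectin RNA in both libraries.

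Ligands of galectins and the enzymes that build the branched N-glycans they bind gave a median of -0.30 for the log2 ratio, with 15 of 16 genes measured. With the length and GC trend removed the median was -0.20. Of the 15 genes 6 were at least 1.5-fold lower, where 13.4% of all genes were, and 1 was higher, where 10.8% were. The higher one was Trim16, a galectin-3 partner at damaged lysosomes, with 7.27 FPKM in the antagomir library and 4.43 FPKM in the control library. The lysosomal membrane proteins LAMP1 and LAMP2 carry many galectin-binding glycans. Lamp1 had 143 FPKM in the antagomir library and 296 FPKM in the control library, 2.07-fold lower, and Lamp2 had 9.99 FPKM in the antagomir library and 18.0 FPKM in the control library, 1.73-fold lower. There were 2.07 FPKM of Lgals3 per FPKM of Lamp1 in the antagomir library and 1.91 in the control library, so these 2 genes kept close to the same proportion. Fn1, encoding fibronectin, was 4.42-fold lower. Bsg, encoding basigin, had 394 FPKM in the antagomir library and 324 FPKM in the control library, and the branching enzyme gene Mgat4b had 54.4 FPKM in the antagomir library and 75.7 FPKM in the control library. Exons of 7 of these 15 genes overlap those of another gene, where 37.7% of all genes have such an overlap. Lamp1, Fn1 and Trim16 are among the 7, and the values of these genes are uncertain.

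Crip1, a protein made of a LIM domain and a short tail, had 222 FPKM in the antagomir library and 46.5 FPKM in the control library. The gene was 4.70-fold higher, a log2 ratio of 2.23, and stood at rank 5 of the 10201 log2 ratios. Crip2, a related protein with 2 LIM domains that is known from vascular smooth muscle and endothelium, had 123 FPKM in the antagomir library and 108 FPKM in the control library, a log2 ratio of 0.18. The order of the pair differed between the libraries, with 1.81 FPKM of Crip1 per FPKM of Crip2 in the antagomir library and 0.43 in the control library. They are neighbours on the plus strand of chromosome 12 in GRCm38, Crip2 from 113140236 to 113145506 and Crip1 from 113146316 to 113153879, 810 bases apart. The genes that flank the pair in the table, Mta1 and Tedc1, had log2 ratios of -0.77 and 0.66. Crip3 and Csrp3 had no value, which is not read as low expression. Of the related CSRP genes, which encode cysteine- and glycine-rich LIM proteins, Csrp2 had 44.9 FPKM in the antagomir library and 23.6 FPKM in the control library, 1.86-fold higher, and Csrp1 had 243 FPKM in the antagomir library and 281 FPKM in the control library.

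The promoter windows of Crip1 and Lgals3, the highest and the lowest log2 ratio of the 9 genes, are shown with the same motifs in capitals, at chr12:113151762-113152061 and chr14:47373610-47373909 on the plus strand of GRCm38.p6. The RefSeq starts of Crip1 and Lgals3 used here both lie inside the spans given above, which begin upstream of them.
Crip1: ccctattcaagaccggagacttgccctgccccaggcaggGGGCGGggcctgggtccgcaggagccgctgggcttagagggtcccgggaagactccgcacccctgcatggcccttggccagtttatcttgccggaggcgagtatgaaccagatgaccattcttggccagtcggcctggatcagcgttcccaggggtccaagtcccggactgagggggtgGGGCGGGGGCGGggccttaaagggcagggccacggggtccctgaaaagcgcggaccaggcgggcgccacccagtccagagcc
Lgals3: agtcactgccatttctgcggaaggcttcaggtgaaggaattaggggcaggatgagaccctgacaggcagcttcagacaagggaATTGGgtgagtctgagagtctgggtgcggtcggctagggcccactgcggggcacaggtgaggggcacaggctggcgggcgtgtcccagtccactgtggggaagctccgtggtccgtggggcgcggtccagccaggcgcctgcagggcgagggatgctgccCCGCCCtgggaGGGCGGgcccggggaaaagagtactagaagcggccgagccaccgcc
The Crip1 window held 3 GC boxes, 2 of them adjoining, and had a GC content of 68.3%. The Lgals3 window held 2 GC boxes and an NF-Y box and had a GC content of 67.0%, so that windows of similar makeup belonged to the genes at both ends. The median GC content of all windows was 52.7%. No TEAD or ATF4 and C/EBP match was found in the windows of the 7 members with an entry, which says only that these letters are not there. Sequences are those of RefSeq, and S100a10 and Lgals1 had no entry.

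All 9 members have short mRNAs, and the log2 ratio varied with transcript length in this table. Their longest coding transcripts in GENCODE release M21 measure 498 nucleotides for S100a4, 511 for S100a11, 516 for Crip1, 685 for S100a10, 715 for S100a13, 731 for S100a6, 800.0 for Lgals1, 1419 for Lgals3 and 1439 for Crip2. When the genes were divided by this length into 5 equal groups, all 9 fell in the shortest, which ran from 204 to 1712 nucleotides. The median log2 ratio of the shortest group was 0.28, that of the longest group was -0.20, and 8.88% of the shortest group were at least 2-fold higher. Among the 375 genes of the shortest group that reached 100 FPKM in either library the median was 0.43 and 12.5% were at least 2-fold higher. All 9 members are among these 375 genes, Crip1 and S100a13 only through their level in the antagomir library.

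After the dependence of the log2 ratio on length and GC content had been taken out, the members' median was 0.51. Crip1 then had a log2 ratio of 1.56 and S100a13 one of 1.06, the 2 members that stayed at least 2-fold higher. S100a4 had 0.83, S100a6 0.85, Lgals1 0.51 and S100a10 0.14. Lgals3 had -1.14, at least 2-fold lower, S100a11 had -0.80, and Crip2 changed sign, to -0.13. Before this removal S100a4, S100a11 and Crip1, all between 498 and 516 nucleotides, had log2 ratios of 1.47, -0.17 and 2.23. These were also the members that shifted by more than 1.5-fold with the trend removed. The part of length in each member's difference was not tested.

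**Figure D3:**
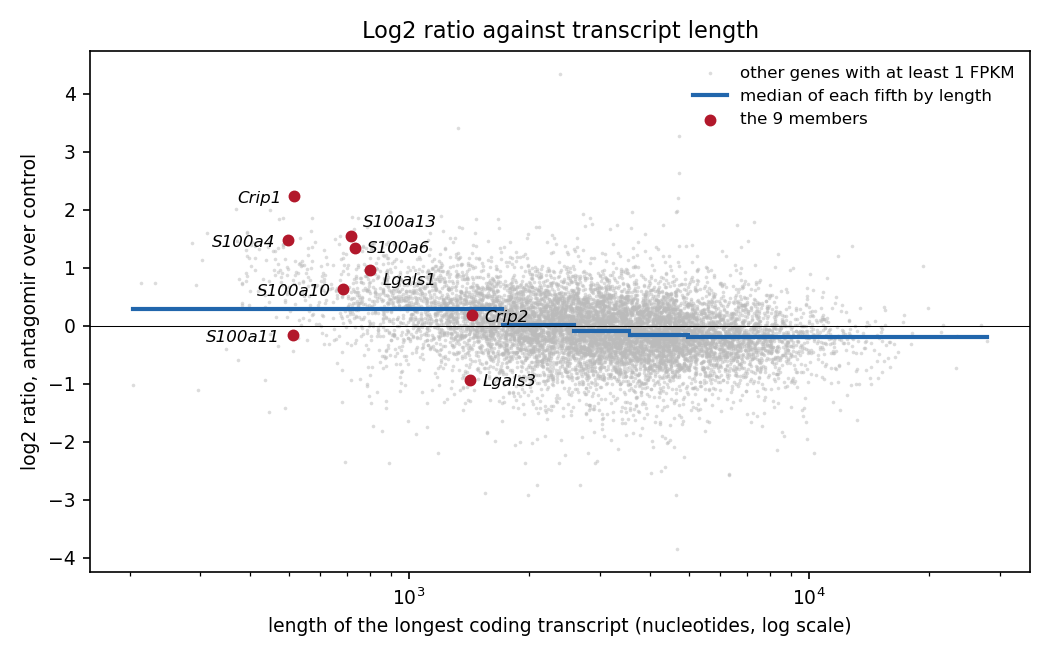
Log2 ratio of antagomir over control against the length of the longest coding transcript in nucleotides on a log axis, for the genes with at least 1 FPKM (grey) and the 9 members (red), with the median of each of 5 equal groups by length (blue lines). The medians run from 0.28 in the shortest group to -0.20 in the longest, and the members spread from -0.94 to 2.23 within the shortest group.

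A list of 20 other small abundant proteins was set beside the members. All 20 had a value, with a median log2 ratio of 0.57, and 0.28 with the length and GC trend removed. Of the 20 genes 10 were at least 1.5-fold higher and 1, the ubiquitin gene Ubb, was lower, where 10.8% and 13.4% of all genes were. With that trend removed only Tmsb4x, Calm3, Cfl1, Myl6 and Dynll1 were at least 1.5-fold higher, where 8.3% of all genes were. Ubb, Ftl1 and Mif were then at least 1.5-fold lower, where 12.4% of all genes were. Tmsb4x, which encodes the actin-sequestering thymosin beta-4, had 240 FPKM in the antagomir library and 104 FPKM in the control library, 2.30-fold higher. Dbi, the acyl-CoA-binding protein gene, had 122 FPKM in the antagomir library and 60.2 FPKM in the control library, 2.01-fold higher. Dbi was under 2-fold as TPM (0.93), after rescaling without 3 abundant gene families (0.96) and with the length and GC trend removed (0.44), and Tmsb4x was under 2-fold with that trend removed (0.86). Others of the list were nearly equal, such as Cstb, a cathepsin inhibitor gene, with 219.8 FPKM in the antagomir library and 221 FPKM in the control library, and the ferritin gene Fth1, with 3120 FPKM in the antagomir library and 3132 FPKM in the control library. With the length and GC trend removed Cstb had a log2 ratio of -0.54 and Fth1 one of -0.17. The members' median point, which is that of S100a10 in both libraries, had as its 5 nearest genes by Euclidean distance over the log2 values of the 2 libraries Rpl13, Rps16, Tmsb10, Rps23 and Rps7, at distances of 0.10 to 0.17. Of these 4 encode ribosomal proteins and Tmsb10 encodes thymosin beta-10. With 2 libraries such likeness is a likeness of 2 values only.

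The binding partners of the S100 proteins were also listed. Over the 12 of 16 listed partners with a value the median log2 ratio was -0.15, and -0.08 with the length and GC trend removed. None of the 12 was 1.5-fold higher and 2 were 1.5-fold lower, where 10.8% and 13.4% of all genes were. The partners' median transcript length was 2507 nucleotides, against 715 for the members. The members were also chosen on this contrast, so the 2 medians are not compared. Anxa2, the partner of S100a10, had 387 FPKM in the antagomir library and 335 FPKM in the control library, so that 2.04 FPKM of S100a10 stood against 1 FPKM of Anxa2 in the antagomir library and 1.52 in the control library. Anxa1, the partner of S100a11, had 364 FPKM in the antagomir library and 328 FPKM in the control library. Myh9, the non-muscle myosin heavy chain bound by S100a4, had 90.4 FPKM in the antagomir library and 153 FPKM in the control library, 1.68-fold lower. Trp53, encoding p53, which several S100 proteins bind, had 28.7 FPKM in the antagomir library and 47.4 FPKM in the control library, 1.63-fold lower. Cacybp, the partner of S100a6, had 84.2 FPKM in the antagomir library and 74.7 FPKM in the control library.

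LIM proteins of the actin cytoskeleton, the wider family of CRIP1 and CRIP2, gave a median of -0.01 (0.04 when centred on the median of all genes), with 21 of 22 genes reaching 1 FPKM. Of these 2 were at least 1.5-fold higher, 6 were at least 1.5-fold lower and 4 at least 2-fold lower. The shares of all genes at these limits were 10.8%, 13.4% and 3.79%. The 2 higher ones, Pdlim2 and Pdlim4, belong to the PDZ and LIM family, and Pdlim4 had 48.9 FPKM in the antagomir library and 26.9 FPKM in the control library. Zyx, encoding the focal adhesion protein zyxin, had 48.3 FPKM in the antagomir library and 108 FPKM in the control library, 2.22-fold lower, and its exons overlap those of Epha1. Lims1, encoding PINCH1, which links integrins to actin, had 25.5 FPKM in the antagomir library and 53.9 FPKM in the control library, 2.07-fold lower. Tgfb1i1, a paxillin relative also called Hic-5, was 2.03-fold lower. With the length and GC trend removed Lims1 and Tgfb1i1 were under 2-fold, both at -0.91, and Pdlim4 was under 1.5-fold, at 0.47. Tgfb1i1 was also under 2-fold when centred on the median, at -0.98.

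**Figure D4:**
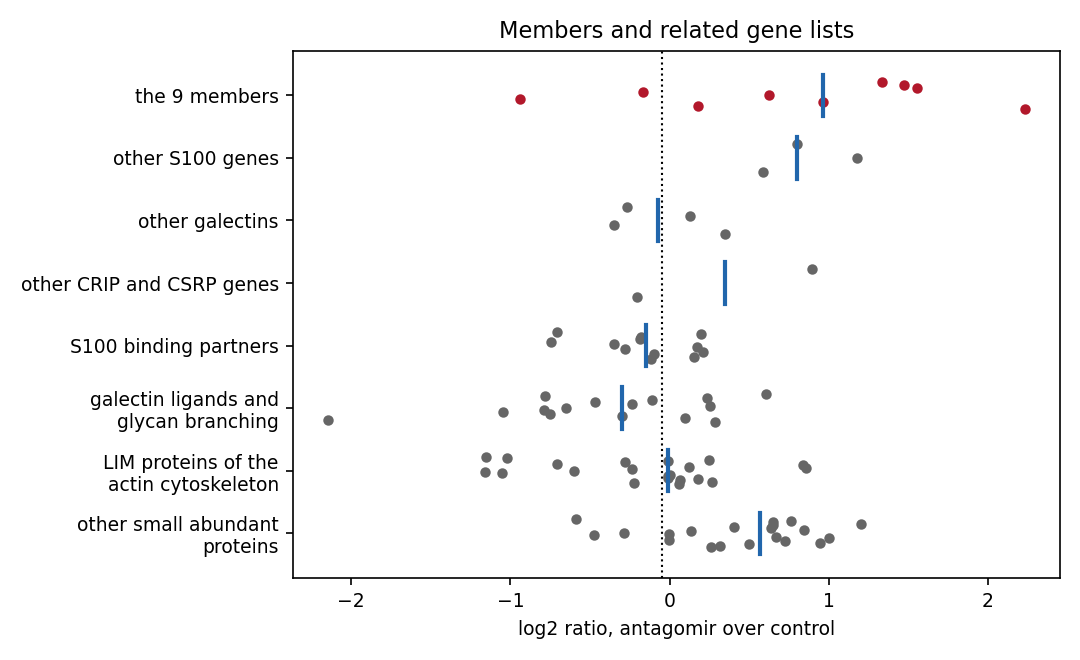
Log2 ratio of antagomir over control for each gene with at least 1 FPKM, by list, with the 9 members at the top (red), the other lists in grey and the median of each list as a blue line; the dotted line is the median of all genes, -0.05. The members' median is 0.96, that of the other small abundant proteins 0.57, and those of the S100 partners, galectin ligands and LIM proteins lie at -0.15, -0.30 and -0.01.

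Several members are used as markers of cells other than cardiomyocytes, and the cell type markers of both libraries are given here for that reason. Of 15 cardiomyocyte markers 3 had a value, Tnnt2, Tnnc1 and Nppb, which summed to 32.3 FPKM in the antagomir library and 12.7 FPKM in the control library. Nppb, encoding the natriuretic peptide BNP, had 5.28 FPKM in the antagomir library and 6.86 FPKM in the control library, a log2 ratio of -0.32, while Tnnt2 and Tnnc1 were higher. Tnnc1 had 18.9 FPKM in the antagomir library and 4.39 FPKM in the control library. Tnnt2, encoding cardiac troponin T, had 8.19 FPKM in the antagomir library and 1.48 FPKM in the control library, and the other 12 markers had no value, so the defining markers of the labelled cell type were low or without a value. Of 10 fibroblast markers 6 had a value and summed to 341 FPKM in the antagomir library and 548 FPKM in the control library. Of these 3 were at least 1.5-fold lower, where 13.4% of all genes were. Among the 3 was Col1a1, with 24.2 FPKM in the antagomir library and 58.5 FPKM in the control library. Pdgfra, the 1 marker of the 6 that went the other way, had 1.66 FPKM in the antagomir library and 1.19 FPKM in the control library. In the antagomir library S100a4 was higher and Col1a1 was lower. Their longest coding transcripts measure 498 and 5930 nucleotides, and whether S100a4 followed the number of fibroblasts was not tested. The 5 smooth muscle and pericyte markers with a value, of 7, summed to 892 FPKM in the antagomir library and 1332 FPKM in the control library, nearly all of it Acta2. Tagln, another of these markers, went the other way, with 37.8 FPKM in the antagomir library and 18.2 FPKM in the control library, as did Cnn1, with 2.91 FPKM in the antagomir library and 1.79 FPKM in the control library. Of 13 macrophage markers 2 had a value, Lyz2 with 4.44 FPKM in the antagomir library and 3.28 FPKM in the control library and Cd14 with 17.5 FPKM in the antagomir library and 13.6 FPKM in the control library, and Ptprc had none. Of 8 endothelial markers 1 had a value, at under 1 FPKM in both libraries, and Pecam1 had none. The 3 of 9 mesothelial markers with a value summed to 32.0 FPKM in the antagomir library and 40.7 FPKM in the control library, and the 2 of 5 erythroid markers to 20.8 FPKM in the antagomir library and 14.4 FPKM in the control library. No marker with a value was listed at 0, and every row of the table reached 0.50 FPKM in at least 1 library. A missing value is not read as absence. In bulk RNA a different number of cells of a type and a different amount of RNA per cell cannot be told apart, and the part of cell makeup in the members' differences was not tested.

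Reads shared with near copies limit some values. S100a11 has 5 processed pseudogenes of at least 90% identity over at least 100 bases in the annotated transcripts, the closest at 99.0% over 297 bases, so its level depends on how the authors' counting split such reads. Exons of S100a4 and S100a3 overlap those of the predicted gene Gm42674, which had 1.62 FPKM in the antagomir library and 0.96 FPKM in the control library. Crip2 has 1 pseudogene with 137 aligned bases, and no such copy was found for the other 6 members.

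**Figure D5:**
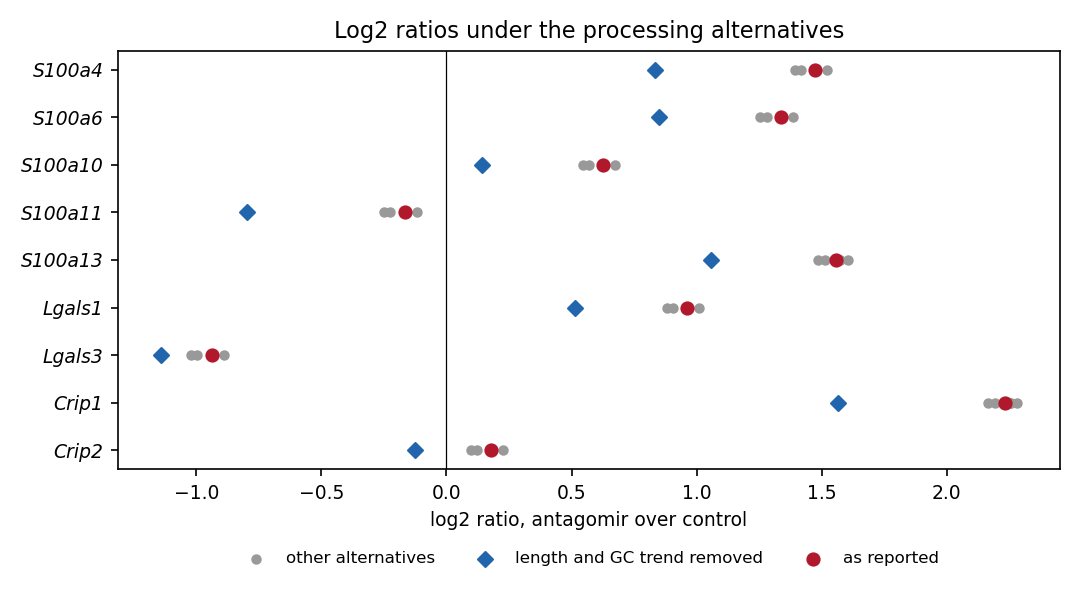
Log2 ratio of antagomir over control of each of the 9 genes as reported (red), with the length and GC trend removed (blue diamonds) and under the other processing alternatives (grey). Removal of the trend lowered every member, from 2.23 to 1.56 for Crip1 and from 0.18 to -0.13 for Crip2, which is the 1 member that changed sign, and the other alternatives moved the members less.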

How the data were processed

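Libraries came from TRIzol-extracted RNA after poly(A) selection, with a stranded KAPA kit, per the labels' protocols, which also list adaptor ligation at both RNA ends. These steps do not settle the library type, and its part in the values of short mRNAs was not tested. The deposited values are FPKM per gene, made by the authors with cutadapt, HISAT2 and StringTie 1.3.3 on GRCm38, per the submitters' processing notes; annotation release and strand use: not given in the sources used here. An FPKM depends on the library total, so a gain in abundant genes lowers all others. No steps of whole reads were found in low values, so depth is unknown and no interval was computed. FERPIR was not analysed here, so its knockdown was not checked.

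Groups came from the sample titles. FPKM of 10 symbols on more than 1 line were summed, leaving 10982 genes, of which 10201 reached 1 FPKM in either library. The log2 ratio used a pseudocount of 1 FPKM, which understates differences of low genes. No test was made, each group having 1 library. The members and gene lists were chosen with earlier results of these data known. Named were all members, every other S100, galectin, CRIP and CSRP gene with a value, in each further list genes reaching 5 FPKM with a 2-fold difference and up to 2 at either end, of which the text prints a part, the cell checks Tnnt2, Col1a1, Pecam1, Ptprc and Lyz2, and the 5 nearest genes. Other genes named, as neighbours, partners, markers or examples of equal levels, were chosen after their values were seen. Length and GC content refer to the longest coding transcript in GENCODE release M21, whose coordinates equal the deposited ones for all 9 members. The trend was a polynomial of degree 2 in log2 length and GC content. Near copies were searched with blastn among the transcripts of that release. Python 3.11.15, pandas 2.3.3, numpy 2.4.6 and matplotlib 3.10.9 were used. Alternatives were other pseudocounts, other minimums, TPM, median centring, rescaling without 3 gene families, removal of the trend and leaving out genes with exon overlaps.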

Additional observations from a re-analysis of the deposited data

How the results depend on the processing

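Of 80 log2 ratios of the members under 9 alternatives, 79 had the sign reported above, and the exception was Crip2 with the length and GC trend removed (-0.13). A value was taken as moved when it shifted by more than 0.585 on the log2 scale, which is 1.5-fold, since no replicate spread exists. By this limit 3 members moved, all with the trend removed, S100a4 to 0.83, S100a11 to -0.80 and Crip1 to 1.56. With the trend removed the members at least 2-fold higher numbered 2, those at least 2-fold lower 1 (Lgals3) and those at least 1.5-fold lower 2 (Lgals3 and S100a11), where 12.4% of all genes were. As TPM 1 member, Lgals3, was at least 2-fold lower, at -1.02. Centred on the median 5 members were at least 2-fold higher, with 3.42% of all genes higher and 3.34% lower, the 1 setting run in which higher genes were the more numerous. Without exon overlaps S100a4 has no value. Among all genes 294 were at least 2-fold higher and 387 lower, and 174 and 371 with the trend removed, 492 and 635 with a pseudocount of 0.1, 524 and 676 with 0.01, 350.0 and 692 as TPM, 382 and 663 after rescaling that left out ribosomal protein, hemoglobin and mitochondrially encoded genes, and 186 and 264 without exon overlaps. S100a3 and S100a14, near or under 1 FPKM in the control library, had log2 ratios of 2.02 and 1.78 with a pseudocount of 0.1. No paired analysis was possible because each group has 1 library, and for the same reason no library could be left out.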
